A study of Rattus norvegicus with 8 samples.

Results

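Skeletal muscle contractile genes were followed across the prostate of rats descended from vinclozolin-treated or control founders. They are 35 genes listed by symbol, of the thick filament, the thin filament, the Z disc, calcium handling and the muscle energy supply, and a gene's probe sets were those annotated to exactly 1 of these symbols. All 35 were on the array, of 14217 genes with such a probe set, and they had 52 probe sets, of which 34 in 25 genes passed the filter on low values and were tested. The 4 groups of 2 Affymetrix arrays were whole ventral prostate of vinclozolin and of control lineage males at 180 days of age, and ventral prostate epithelium of vinclozolin and of control lineage males at 45 days. All were Sprague-Dawley rats of generation F3, bred from females injected intraperitoneally on gestation days 8 to 14. Vinclozolin is a fungicide with antiandrogenic activity. The treatment text names only the vehicle DMSO for all 8 samples, including the 4 with vinclozolin in the title, so lineage here is that of the titles. Each epithelium RNA pooled 11 animals and each whole prostate RNA several. The labels do not state whether the arrays of a group held different animals. The p-values therefore rest on the spread between the 2 pooled samples of each group, which may be technical. That spread was taken over all 4 groups together and drawn towards the spread of all probe sets tested.

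In a striated muscle fibre, myosin thick filaments pull on actin thin filaments when calcium binds troponin C and the troponin complex shifts tropomyosin. Most of these proteins exist as fast and slow isoforms, encoded by different genes and used in fast-twitch and slow-twitch fibres. The secretory lobes of the prostate are surrounded by smooth muscle, while the sphincter around the nearby urethra is striated. Values below are the deposited intensities on each array. Changes are on the log2(intensity + 16) scale after quantile normalisation, with the standard error (SE) of the limma fit. Called means an adjusted p under 0.05 over all probe sets tested.

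The sequences just upstream of 3 genes are shown, of the 7 called lower in whole prostate of the vinclozolin lineage. They are the 200 bases before the annotated start (RefSeq, GRCr8), of Myl1 and Tnnc2, whose calls held in every refit that was run, and of Acta1. Capitals mark E-boxes (CANNTG, the site of myogenic bHLH factors), TATAAA and CArG boxes (the site of serum response factor), searched on both strands.
Myl1, chr9:75907697-75907896, minus strand: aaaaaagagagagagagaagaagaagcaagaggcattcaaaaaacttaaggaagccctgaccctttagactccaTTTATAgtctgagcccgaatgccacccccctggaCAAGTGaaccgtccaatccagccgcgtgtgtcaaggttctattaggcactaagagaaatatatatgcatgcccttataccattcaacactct
Tnnc2, chr3:173935340-173935539, minus strand: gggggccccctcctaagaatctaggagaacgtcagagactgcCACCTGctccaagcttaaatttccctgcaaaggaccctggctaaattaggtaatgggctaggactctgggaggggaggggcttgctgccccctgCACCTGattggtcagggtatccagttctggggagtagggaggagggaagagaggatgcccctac
Acta1, chr19:68784195-68784394, minus strand: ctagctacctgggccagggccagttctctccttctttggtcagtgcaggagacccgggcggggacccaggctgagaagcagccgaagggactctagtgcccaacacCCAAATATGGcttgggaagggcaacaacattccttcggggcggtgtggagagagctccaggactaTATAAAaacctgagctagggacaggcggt
The Tnnc2 window held 2 E-boxes and the Myl1 window 1 E-box and a TATAAA match on the opposite strand. The Acta1 window held a CArG box and a TATAAA match 29 bases before the start. Of the 31 member genes with an entry, 24 had an E-box in this window, against 56.6% of all 27457 promoters. TATAAA was found in 10 members against 10.5% of all, and a CArG box in 3 members against 1.14% of all. A MEF2 motif was also searched, and was found in 4 members against 2.43% of all, but in none of the windows shown. For some of the 31 members, such as Myl11 and Tnni2, the start used differed from that of the gene's record. For the 3 genes shown it matched. Actn3, also called lower, had 0 matches of each motif. The part of these motifs in the fall was not tested.

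The arrays had medians of 28.7 to 38.7 intensity units, and 28.3% to 36.7% of probe sets on an array read under 16. Luminal markers were present in all groups, and their summed intensity was 31737 to 32601 in whole prostate of the vinclozolin lineage, 32845 to 33521 in its control, 35432 to 35867 in epithelium of the vinclozolin lineage and 33258 to 34512 in its control. The arrays labelled epithelium also read stromal genes. Acta2, smooth muscle actin, had 1743.7 and 1801.5 in epithelium of the vinclozolin lineage and 2117.1 and 1788.7 in its control, beside 183.1 and 172.6 in whole prostate of the vinclozolin lineage and 118.9 and 165.2 in its control. Smooth muscle RNA was thus present on the epithelium arrays, at a higher level than on those of whole prostate.

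In whole ventral prostate, 6 of the 13 fast-fibre genes tested fell in the vinclozolin lineage, each on 1 probe set, and so did Acta1, which all fibres share. Myl11 and Myl1, the fast regulatory and alkali myosin light chains, fell by 3.20 ± 0.43 and 2.87 ± 0.16, and Tnnc2, fast troponin C, fell by 1.95 ± 0.11 (n = 2 arrays per group, limma). Actn3, Tnnt3 on 1 of 2 probe sets, Tnni2 and Acta1 also fell. In all, 7 of the 34 member probe sets tested were called lower and 0 higher, in 7 genes, where 0.925% of all probe sets tested were called lower and 0.819% higher. With no filter on low values, 7 of all 52 member probe sets were called lower, against 0.37% of all probe sets, and the median change over the 52 was -0.43, against 0.00 over all. Of the tested probe sets 4, of Myh4, Myl11, Tnnt3 and Ttn, passed the filter only through the whole prostate control arrays. In these pooled tissues, fewer fibres and less RNA per fibre cannot be told apart. Whether this RNA came from fibres in the prostate or beside it was not tested.

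**Figure D1:**
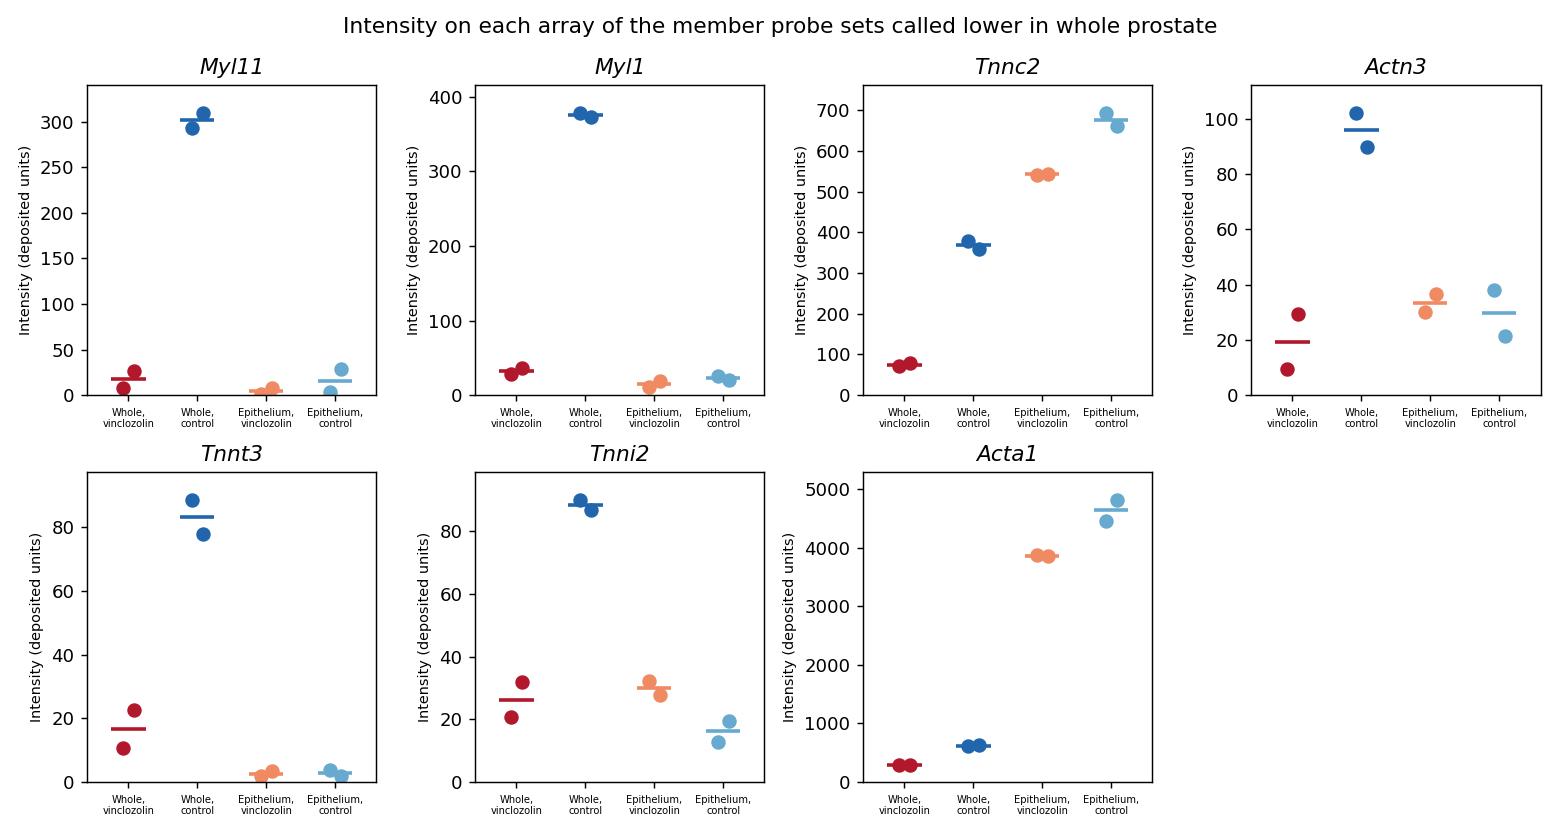
Deposited intensity of the 7 member probe sets called lower in whole prostate; each point is an array, lines are means of the 2 arrays of a group, and each panel has its own axis from 0. Whole prostate control is the highest group for 5 genes, whereas Tnnc2 and Acta1 are highest in epithelium.

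Among thick filament genes, Myl1 had 28.5 and 35.8 in whole prostate of the vinclozolin lineage, against 377.9 and 372.3 in its control (adjusted p = 0.00144). Both vinclozolin arrays lay near the epithelium arrays, which read 11.2 and 19.1 in the vinclozolin lineage and 25.4 and 19.7 in control. Myl11 had 7.5 and 27.0 in whole prostate of the vinclozolin lineage and 293.3 and 309.3 in its control (adjusted p = 0.0236). The vinclozolin arrays differed from each other more than for Myl1, and 1 of them read under 16, as did 28.3% to 36.7% of all probe sets on an array. Myl11 lost its call when any 1 of the 4 whole prostate arrays was left out. Myh4, the heavy chain of the fastest (IIb) fibres, had 10.1 and 12.9 against 73.9 and 50.6, a change of -1.51 ± 0.28 that did not pass (adjusted p = 0.057). Myh2, the IIa heavy chain, measured -0.55 ± 0.17 and was not called.

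Myh1, the IIx heavy chain, was bright in all groups. Its 5 probe sets measured between -0.52 and -0.22 in whole prostate, and none was called (adjusted p from 0.0796 to 0.406), though on all 5 both vinclozolin arrays were below both control arrays. The probe set 1383162_at, with the lowest p, had 1125.3 and 1039.0 in the vinclozolin lineage and 1421.7 and 1469.6 in control. Myh3, Myh2, Myh1, Myh4 and Myh8 lie next to one another on chromosome 10 and are paralogs, and whether their probe sets cross-hybridise was not tested, also for the probe set 1377720_x_at. A further 3 probe sets annotated to a member together with other genes were left out. Myh8, the perinatal heavy chain, measured 0.47 ± 0.13 (adjusted p = 0.125), and the embryonic Myh3 was under the filter. Mybpc2, fast myosin binding protein C, measured -0.39 ± 0.23 on its tested probe set and was not called.

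Thin filament genes gave 4 of the 7 calls. Tnnc2 had 71.4 and 79.1 in whole prostate of the vinclozolin lineage, against 378.3 and 360.2 in control (adjusted p = 0.00152). Tnni2, fast troponin I, the inhibitory subunit, had 20.6 and 31.9 against 90.0 and 86.7, a fall of 1.26 ± 0.17 (adjusted p = 0.0245). Tnnt3, fast troponin T, which anchors the complex to tropomyosin, had 10.8 and 22.7 against 88.6 and 77.9 on probe set 1371247_at, where it fell by 1.59 ± 0.18 (adjusted p = 0.0128). All 3 fast troponin subunits were thus called lower, and the arrays of the lineages did not overlap. The second Tnnt3 probe set, 1397499_at, disagreed, with 21.0 and 22.5 against 14.5 and 12 and a change of 0.31 ± 0.29 that was not called. Acta1, skeletal alpha-actin, had 287.1 and 294.2 in the vinclozolin lineage and 608.2 and 628.0 in control, a fall of 1.00 ± 0.10 (adjusted p = 0.0113). It kept a clear signal in both lineages, and the fall was 2.00-fold. Whether its probe set also reads other actins, such as Acta2, was not tested. Neb, the thin filament ruler nebulin, was under the filter on all 3 probe sets, between 1.2 and 22.1 on every array.

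At the Z disc, Actn3, the alpha-actinin of fast fibres, had 9.4 and 29.3 in the vinclozolin lineage and 102.1 and 89.7 in control, a fall of 1.67 ± 0.28 close to the threshold (adjusted p = 0.0464). Its call was lost with no filter (adjusted p = 0.0751) and in 12 of 18 refits in all, in which the adjusted p ranged from 0.00193 to 0.25. Myoz1, a calcineurin-binding Z disc protein of fast fibres, had 26.8 and 46.9 against 88.3 and 99.9 (-1.01 ± 0.19, adjusted p = 0.0553), and Tcap, the cap of titin, 16.8 and 14.2 against 40.1 and 55.9 (-1.05 ± 0.22, adjusted p = 0.0722). Neither passed, though their arrays did not overlap between lineages. Ttn, titin, had 10.5 and 15.3 against 25.4 and 26.3 (-0.62 ± 0.19) and was not called, and Actn2 was under the filter.

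No gene of calcium handling or energy supply passed the limma test in whole prostate, though 3 of 5 and 4 of 5 tested probe sets were lower at an unadjusted p under 0.05. Atp2a1, the calcium pump of fast fibres, had 33.2 and 21.9 in the vinclozolin lineage and 102.1 and 126.1 in control (-1.52 ± 0.36, adjusted p = 0.0914). Casq1, the fast calsequestrin that stores calcium, had 4.5 and 12.7 against 27.8 and 23.9 (-0.89 ± 0.22, adjusted p = 0.0984) and Ryr1, the calcium release channel, measured -0.93 ± 0.43 (adjusted p = 0.316). Pvalb, the calcium buffer parvalbumin of fast fibres, had 3.2 and 4.1 against 40.1 and 29.4. It was under the filter, and with no filter it fell by 1.47 ± 0.20 (adjusted p = 0.0396). Ckm, muscle creatine kinase, had 22.1 and 6.7 against 105.3 and 149.1, a change of -2.22 ± 0.41 that missed the threshold (adjusted p = 0.0553). Eno3, the muscle enolase, had 35.5 and 29.9 against 84.7 and 82.1 (-0.99 ± 0.25, adjusted p = 0.105). Pygm, which breaks down glycogen, measured between -1.29 and -0.24 on 3 probe sets. All 4 probe sets of Trdn, triadin, were under the filter.

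**Figure D2:**
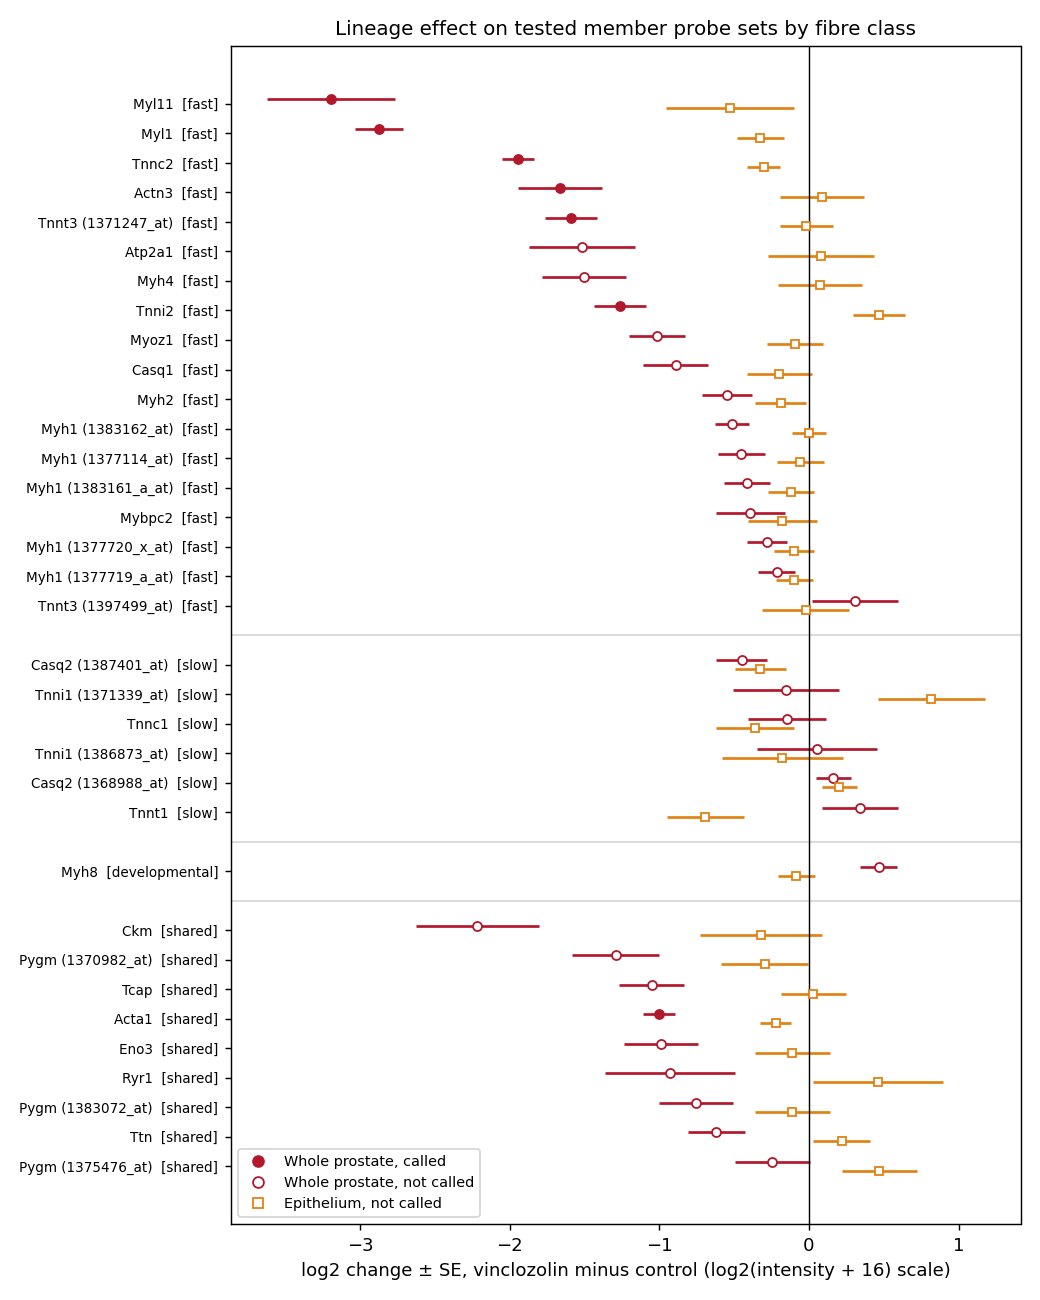
Change on the log2(intensity + 16) scale, vinclozolin minus control, with its SE, for the 34 tested member probe sets by fibre class; circles are whole prostate (filled where called) and squares are epithelium. Of 18 fast probe sets 17 lie below 0 in whole prostate, the 6 slow ones lie on both sides, and no square is called.

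Fast and slow isoforms were set side by side. With no filter on low values, 19 of all 20 fast probe sets had a negative change in whole prostate, with a median of -0.95, and 8 of all 13 slow probe sets did, with a median of -0.04. The median over all probe sets was 0.00. Only 6 of these 13 slow probe sets passed the filter. Most of the others were too dim in whole prostate control for a fall to be read, such as Mybpc1 with 3.3 and 2.2. The slow median is limited by this. Of the probe sets that passed the filter, 6 of 18 fast ones were called lower and 0 of 6 slow ones (1 had an unadjusted p under 0.05 in limma). The filter favours this contrast, since 3 of the fast probe sets, of Myh4, Myl11 and Tnnt3, passed only through the whole prostate control arrays. The difference between the classes was not tested, since genes are not replicates. Among the pairs, Tnnc1, slow troponin C, had 31.6 and 49.2 in the vinclozolin lineage and 65.5 and 30.5 in control, where the lineages overlapped (-0.14 ± 0.26). It read 135.4 and 132.5 in epithelium of the vinclozolin lineage and 173.2 and 175.2 in its control. Tnni1, slow troponin I, had 17.6 and 31.2 against 31.0 and 22.3 in whole prostate on 1371339_at (-0.15 ± 0.36), and 4.7 and 26.3 against 19.7 and 5.4 on 1386873_at (0.05 ± 0.40). The lineages overlapped on both. Tnnt1, slow troponin T, had 9.1 and 10.8 against 2.5 and 6.6 (0.34 ± 0.26, not called), all dim, and read 30.2 and 23.0 in epithelium of the vinclozolin lineage and 70.6 and 34.6 in its control. Casq2, the slow and cardiac calsequestrin, had 82.8 and 83.8 against 70.8 and 76.6 in whole prostate on 1368988_at (0.16 ± 0.12), and 18.1 and 11.3 against 19.9 and 27.0 on 1387401_at (-0.45 ± 0.17). Neither was called, and they differed in sign.

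The other slow genes were dim. Myh7, the slow heavy chain, read 0.9 to 18.2 over its 2 probe sets and all 8 arrays, and Myl2, the slow regulatory light chain, 1.3 to 21.3. Myl3, the slow alkali light chain, read 2.6 to 21.7, Mb, the oxygen carrier myoglobin, 2.2 to 23.0 and Mybpc1, slow myosin binding protein C, 1.2 to 3.3. All 5 had a mean over the 8 arrays under the filter. Mb had 2.2 and 8.3 in whole prostate of the vinclozolin lineage and 9.1 and 23.0 in its control, and with no filter it measured -0.68 ± 0.28, with an unadjusted p of 0.0477 and an adjusted p of 0.334. Its arrays did not overlap between lineages, and it was not called. The calcium pump Atp2a2, which slow fibres share with many other cells, had 4 tested probe sets and none was called, and on the one of lowest p it had 347.5 and 343.4 in the vinclozolin lineage and 274.9 and 300.8 in control (0.28 ± 0.12, adjusted p = 0.276).

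Over all 52 probe sets, both vinclozolin arrays of whole prostate were below both controls for 33 and above both for 5, against 24.2% and 24% of all probe sets. Member probe sets under 16 intensity units numbered 28 and 25 on the vinclozolin arrays and 18 and 19 on the control arrays. Repeating the fit without 1 array, the 7 calls became 2 without either whole prostate control (Myl1 and Tnnc2 each time), 2 without vinclozolin replicate 1 (the same genes) and 3 without vinclozolin replicate 2 (these and Tnnt3). Myl1 and Tnnc2 were called in all 18 refits, with adjusted p of at most 0.0355.

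**Figure D3:**
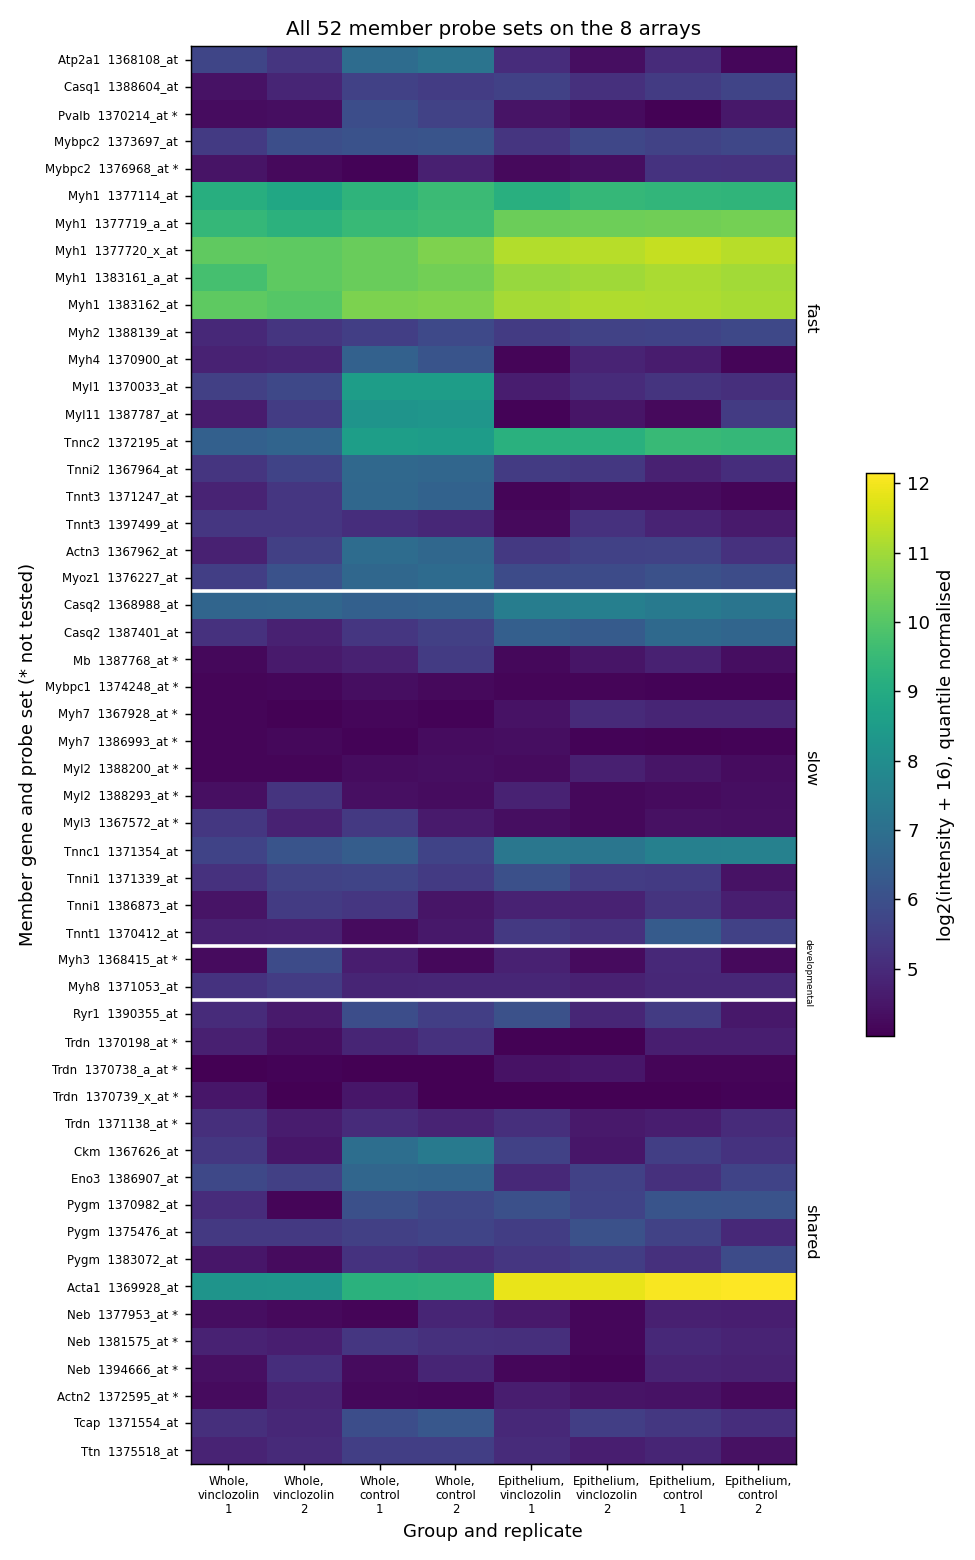
All 52 member probe sets (rows, by fibre class, starred where not tested) on the 8 arrays (columns, by group), as quantile-normalised log2(intensity + 16). Many fast rows are brightest in the 2 whole prostate control columns, most slow rows stay dark, and Myh1, Acta1 and Tnnc2 are bright in epithelium.

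In epithelium at 45 days, 0 of the 34 member probe sets were called between vinclozolin and control in limma, where 0.0092% of all were (0.0046% higher and 0.0046% lower). At an unadjusted p under 0.05, 2 were lower, of Tnnc2 and Tnnt1, and 1 higher, of Tnni2. The count of calls was 0 in every alternative fit. The median change was -0.10, against 0.00 over all probe sets tested. Both vinclozolin arrays were below both controls for 17 of 52 and above for 6, against 19% and 18.8% of all. Acta1 had 3870.9 and 3866.2 in the vinclozolin lineage and 4457.9 and 4820.4 in control (-0.22 ± 0.10, adjusted p = 0.488). Tnnc2 had 540.6 and 544.5 against 692.9 and 660.2 (-0.30 ± 0.11, adjusted p = 0.389). For both, the arrays of the lineages did not overlap, and the change did not pass. Tnni2, called lower in whole prostate, had a positive change here that was not called. It had 32.2 and 27.8 in the vinclozolin lineage and 12.8 and 19.4 in control (0.47 ± 0.17, adjusted p = 0.393). These values were dim, all under the medians of the epithelium arrays (36.2 to 38.7), so the direction is uncertain. Myl11 had 1.5 and 7.4 against 3.2 and 28.9, and Tnnt3 on 1371247_at had 1.7 and 3.5 against 3.8 and 1.8. Both were dim in each lineage, so no change could be read there.

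The lineage effects in the 2 preparations were compared directly. The effect in epithelium minus that in whole prostate was positive and called for Myl1 (2.55 ± 0.22, adjusted p = 0.0138) and Tnnc2 (1.64 ± 0.15, adjusted p = 0.0177), 2 of the 34 member probe sets, where 0.17% of all were called in this direction and 0.29% in either. Myl1 was dim in epithelium of both lineages, so a fall could not be read there and its difference rests on whole prostate, whereas Tnnc2 was bright there. Tnni2 (1.73 ± 0.24, adjusted p = 0.0608), Tnnt3 (1.57 ± 0.25, adjusted p = 0.081) and Acta1 (0.78 ± 0.15, adjusted p = 0.123) did not pass, so the effect on them is not shown to differ between preparations. Leaving out each of the 8 arrays in turn, this count was 1 without epithelium vinclozolin replicate 1, when Myl1 was called, and 0 otherwise. Age and preparation changed together and cannot be told apart.

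Between the control groups, members were called in both directions, as probe sets were over the whole array. Of the 34 probe sets, 12 were called lower in 45-day epithelium than in 180-day whole prostate and 10 higher, where 15% and 12.9% of all probe sets were called. The lower calls were in 12 genes and the higher ones in 6. Over all 52, both epithelium arrays were below both of whole prostate for 20 and above both for 16, against 31.7% and 26.4% of all probe sets. Without either whole prostate control array the 22 calls became 12. This comparison shares the whole prostate control arrays with the lineage comparison above, so the 2 are not independent. Lower in epithelium were Myl11 (-3.43 ± 0.43), Myl1 (-3.37 ± 0.16), Tnnt3 on 1371247_at (-2.46 ± 0.18), Atp2a1 (-2.41 ± 0.36), Myh4 (-1.93 ± 0.28), Tnni2 (-1.81 ± 0.17), Ckm, Actn3, Eno3, Ttn, Tcap and Myoz1, with adjusted p of at most 0.0283. Higher were Acta1, by 2.86 ± 0.10, with 4457.9 and 4820.4 in control epithelium and 608.2 and 628.0 in control whole prostate, and Tnnc2, by 0.94 ± 0.11, with 692.9 and 660.2 against 378.3 and 360.2. Myh1 was higher on 4 of 5 probe sets, by 0.54 to 0.92, and measured -0.08 on 1377114_at. Among slow genes, Tnnt1 (1.57 ± 0.26), Tnnc1 (1.54 ± 0.26) and both probe sets of Casq2 (1.31 ± 0.17 and 0.75 ± 0.12) were higher.

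These calls set the members side by side. Myl1, Myl11, Tnnt3, Tnni2 and Actn3 were lower than whole prostate control in whole prostate of the vinclozolin lineage, and also lower in control epithelium. Acta1 and Tnnc2 were lower in whole prostate of the vinclozolin lineage but higher in control epithelium. Myh1, Casq2, Tnnc1 and Tnnt1 were higher in control epithelium, with no call between the whole prostate lineages. Smooth muscle markers had a summed intensity of 25096 to 25664 in control epithelium and 8859 to 8927 in control whole prostate, and 16 of their 21 tested probe sets were called higher in epithelium and 0 lower. Other cell types differed too. Called higher were 4 of 5 basal, 8 of 12 fibroblast and 3 of 6 endothelial probe sets, with 0, 1 and 0 lower. Of 7 adipocyte probe sets 5 were called lower and 0 higher. Leukocyte markers had 1 higher and 3 lower of 7, nerve markers 2 and 1 of 6, and luminal markers 2 and 2 of 9. The part of these cell types in the members that differed between the control groups was not tested. Centring each array on its median moved the median of all probe sets in this comparison to -0.20, from -0.05, and gave 9 member probe sets higher and 12 lower.

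Other muscle genes were read in whole prostate too. Of 42 tested probe sets in a list of other sarcomere genes, 5 were called lower and 0 higher, all 5 of Tpm1, a tropomyosin of skeletal, cardiac and smooth muscle. On 1371241_x_at Tpm1 had 47.8 and 41.0 in the vinclozolin lineage and 258.6 and 287.2 in control, a fall of 2.12 ± 0.16 (adjusted p = 0.00297). That probe set read 220.5 and 173.7 in epithelium of the vinclozolin lineage and 187.6 and 210.6 in its control, so on it whole prostate of the vinclozolin lineage was the one low group. This did not hold on every Tpm1 probe set. On 1370288_a_at control whole prostate, with 987.9 and 857.9, was also below control epithelium, with 1690.8 and 1822.1. Whether 1371241_x_at cross-hybridises was not tested. Of 22 probe sets of other excitation-contraction genes, a list that also holds Casq2, 0 were called in limma and 1 had an unadjusted p under 0.05. Of 25 probe sets of other muscle metabolism genes 0 were called in limma, with 3 lower and 2 higher at an unadjusted p under 0.05. In it Cox6a2, the muscle subunit of cytochrome oxidase, had 4.1 and 11.7 against 29.2 and 23.3 (-0.94 ± 0.17, adjusted p = 0.0539), and Ckmt2, mitochondrial creatine kinase, 2.6 and 9.6 against 27.7 and 17.9 (-0.94 ± 0.21, adjusted p = 0.0825). The medians of these 3 lists were -0.16, -0.02 and -0.08.

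Of 11 tested probe sets of myogenic regulators 0 were called in limma, with 1 higher at an unadjusted p under 0.05. It was of Mef2c, with 41.1 and 24.5 in the vinclozolin lineage and 10.6 and 5.2 in control (1.00 ± 0.23, adjusted p = 0.0857). Myod1, a master regulator of the muscle lineage, read 0.7 to 11.6 on all 8 arrays and Myf6 0.3 to 12.2, both under the filter, and Myog, myogenin, measured -0.52 ± 0.33 and was not called. Cardiac markers had 0 of 9 called in limma, with 1, of Mybpc3, higher at an unadjusted p under 0.05 (1.00 ± 0.28, adjusted p = 0.131). Their summed intensity was 378 to 422 in whole prostate of the vinclozolin lineage and 301 to 304 in control.

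**Figure D4:**
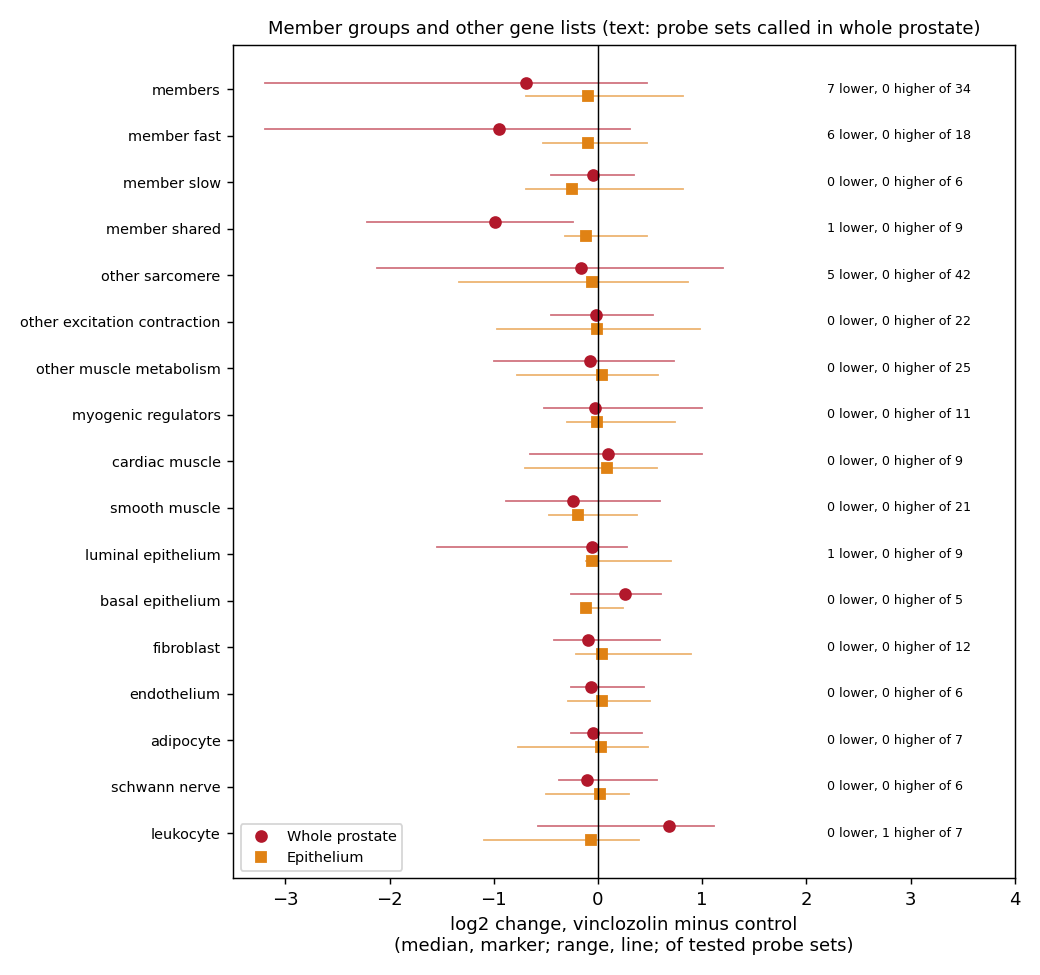
Median (marker) and range (line) of the log2 change, vinclozolin minus control, over the tested probe sets of each list, in whole prostate (circles) and epithelium (squares); the text at the right gives probe sets called in whole prostate. Fast and shared member genes have the lowest medians, near -1, and the slow members and most cell type lists lie near 0. Only 6 slow member probe sets were tested, and some of them were dim in whole prostate control.

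Markers of other cell types were read in the same comparison. Smooth muscle markers had 0 of 21 tested probe sets called in limma, with 7 lower and 2 higher at an unadjusted p under 0.05, a median of -0.24, and a summed intensity of 8912 to 9469 in whole prostate of the vinclozolin lineage and 8859 to 8927 in control. Within that sum the brightest probe set, 1371541_at of the kinase gene Mylk, read 5799.5 and 5545.1 in the vinclozolin lineage and 4677.3 and 4926.4 in control. Tagln, an actin-binding protein of smooth muscle, had 686.1 and 560.8 against 855.0 and 799.8 (-0.39 ± 0.14, adjusted p = 0.203), and Synpo2 measured between -0.88 and -0.31 on 3 probe sets (lowest adjusted p = 0.053). Hspb6, of the same list, went the other way, with 358.6 and 340.8 against 218 and 238.7 (0.59 ± 0.11, adjusted p = 0.0549). Adipocyte, endothelial, fibroblast, basal and nerve markers had 0 called in limma among 7, 6, 12, 5 and 6 tested probe sets, with 0, 0, 2, 1 and 2 at an unadjusted p under 0.05. Of 7 leukocyte probe sets 1 was called higher, Csf1r of macrophages (1.11 ± 0.15, adjusted p = 0.0261), while 5 were higher and 1 lower at an unadjusted p under 0.05, and the median was 0.68. The luminal secretory gene Msmb fell by 1.55 ± 0.11 (adjusted p = 0.00297), the 1 of 9 luminal probe sets called. Beta-actin control probes at the 3' end read above those at the 5' end, a measure of RNA integrity. The ratio was 3.37 and 3.14 on whole prostate vinclozolin arrays and 3.74 and 3.98 on control arrays. On the epithelium arrays it was lower, 2.35 and 2.26 in the vinclozolin lineage and 2.57 and 2.27 in control. In whole prostate, the 5S ribosomal RNA control read 189.2 and 184.0 in the vinclozolin lineage against 462.9 and 478.6 in control. The part of smooth muscle, leukocytes, luminal secretion or RNA quality in the change of the contractile genes was not tested.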

How the data were processed

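The authors deposited 1 linear intensity per probe set, 31099 on each array. Which software computed it was not given in the labels or the file. The 2% trimmed mean came to about 125 on every array, which shows that the deposited intensities had been scaled. Labelling was with biotin, per the labels' protocols. The file has no detection calls, and the arrays' number limits the precision.

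The 57 control probe sets were left out, 16 was added, log2 was taken and arrays were quantile normalised. Probe sets whose mean was under the 30th percentile were left out, which kept 21729. Of the non-control probe sets, 20826 had 1 symbol, 436 several and 9780 none. Group means over all 8 arrays were fitted with limma 3.58.1 in R 4.3.3 (4 residual degrees of freedom, prior 2.62), with Benjamini-Hochberg adjustment over all probe sets tested. The fit was tested on simulated data. Python 3.11.15 and matplotlib 3.10.9 read sequences and drew plots. Members and lists were chosen with earlier results of these data known. Every member is accounted for, and values on each array are given for the members called between lineages and for some others. Of other lists, up to 4 called genes of lowest p are named per comparison, or 2 that did not pass, and not all are printed. Exceptions are Acta2, Mylk, Tagln, Synpo2, Mb, Myod1, Myf6 and Pvalb with no filter. Same-numbered arrays did not deviate together (correlations from -0.02 to 0.03), and the labels do not pair them. Alternatives were the scaling, the pseudocount, the filter, the prior, array weights, the arrays fitted, a replicate block and leaving out each array.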

Additional observations from a re-analysis of the deposited data

Results flagged for a closer look

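Myl1 and Tnnc2 stand out because the vinclozolin effect differed between the preparations by a test of the difference itself. The effect in epithelium minus that in whole prostate was 2.55 for Myl1 and 1.64 for Tnnc2 (limma, n = 2 arrays per group). Myl1 read 11.2 and 19.1 in epithelium of the vinclozolin lineage and 25.4 and 19.7 in its control, too dim for a fall to be read, so its difference rests on whole prostate alone. Over the alternative fits of the pseudocount, scaling, filter, prior, weights and block, Myl1 lost this call with a pseudocount of 1 (adjusted p = 0.109) and Tnnc2 with the replicate block (adjusted p = 0.0607). With 1 array left out, Tnnc2 lost it each time and Myl1 each time except without epithelium vinclozolin replicate 1.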

How the results depend on the processing

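The 7 member calls in whole prostate became 3 with a pseudocount of 1, 15 with a pseudocount of 64, 17 with a trended robust prior, 13 with array weights and 2 with only the 4 whole prostate arrays, and 2 to 6 with an array left out. The 2 calls of the difference of effects became 1 and 9 with the pseudocounts of 1 and 64, 7 with the trended robust prior, 1 with the replicate block, and 0 to 1 with an array left out. The replicate block gave 6 in whole prostate, and the arrays share only a number. The 22 calls between control groups ranged from 12 to 22 with an array left out, at 12 without either whole prostate control. The median member change in whole prostate of -0.69 was -0.41 with a pseudocount of 64, -0.43 with no filter, -0.99 with a filter at the 50th percentile, -1.0 with 1 probe set per gene, and -0.71 to -0.57 with an array left out; in epithelium it ranged from -0.13 to -0.08 with an array left out. Of 518 values of called members under alternatives, 435 kept the call, 83 lost it and 0 reversed. Over all probe sets, calls ranged from 24 to 1814 (379 as reported) in whole prostate, 0 to 205 (2) in epithelium, 5 to 540 (63) for the difference and 2648 to 7782 (6051) between controls. With median centring 178 were higher and 315 lower in whole prostate, and 2246 higher and 5536 lower between controls, against 178 and 201, and 2801 and 3250, as reported. Dim probe sets limit most slow genes, and the cause of these shifts was not tested.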
